A study of Mus musculus with 52 samples.

Results

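The genes described here were the 44 collagen chain genes in the count tables, chosen by their symbols (Col, a number, a and a number) out of 24421 gene symbols. They were divided into 11 fibrillar collagens, 8 basement membrane collagens (Col4a1 to Col4a6, Col15a1 and Col18a1) and 25 others, namely 9 FACITs (collagens that decorate the surface of fibrils), 6 beaded-filament collagens of type VI, 4 transmembrane, 3 short-chain network and 3 remaining collagens. RNA was measured in clones of the Cilia-APEX-IMCD3 line, a mouse line of the inner medullary collecting duct of the kidney. Counted by label within each state there were 13 clones, with 4 libraries per clone and 52 in all. Every clone had passed through CRISPR cytosine base editing with BE4-Gam. The 5 mutant clones carry missense alleles of Wdr34 or Wdr60, which encode the intermediate chains of dynein-2, the motor that returns material from cilia towards the cell body.

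Among ciliated cells there were 4 control clones, named A4, D8, G7 and H12, and the mutant clones Wdr34 1, Wdr34 3 and Wdr60. Non-ciliated cells comprised 1 Wdr34 clone, 1 Wdr60 clone and the controls AB, 1, 2 and 3. The Wdr60 clones carry an alanine-to-valine change and the non-ciliated Wdr34 clone an arginine-to-tryptophan change. The labels do not name the alleles of the ciliated Wdr34 clones. Per the study, the ciliated mutants covered the arginine-to-tryptophan allele and a glycine-to-serine allele of Wdr34. The glycine-to-serine allele was sequenced in ciliated cells only. Its clone also carries an unintended heterozygous glycine-to-aspartic-acid change in Wdr34. Control clones received BE4-Gam with a guide vector that held no target sequence. The study's workflow grew clones from sorted single cells, so the 4 libraries of a clone are technical repeats and the clone is the independent unit. The study's methods describe serum starvation for the ciliated cells, whereas the labels give the same serum for all libraries, and the 2 states were sequenced separately. State, serum, sequencing run and clone therefore cannot be told apart in any comparison between states.

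Libraries held 14816218 to 28084979 counts assigned to genes, and levels are given as CPM, counts scaled to library totals adjusted by TMM (trimmed mean of M-values). The labelled cell type was checked with 12 markers of collecting duct and tubule epithelium. Cdh16, Pax2, Pax8 and Hoxb7 were present in every clone, whereas Aqp2, the water channel of principal cells, had at most 1 count in any library, and Aqp3 was at most 1.06 CPM. The ciliated control G7 and the non-ciliated control 2 stood apart. Their summed epithelial marker level was 1796 and 1094 CPM, against 3617 to 5150 CPM in the other 6 control clones, with Cdh1 (E-cadherin) at 14.4 and 4.22 CPM and Epcam at 13.5 and 2.86 CPM. The ciliated mutant Wdr34 3 was intermediate at 1982 CPM, with Krt8 at 76.7 CPM. Several class means and comparisons are also given without G7 or control 2, as are the calls of the other control clones. Wdr34 and Wdr60 mRNA was measured in every clone, at 21.7 to 49.5 CPM and 20.4 to 30.8 CPM respectively, and since the alleles are missense changes these levels do not check the labels.

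Collagens are built from 3 polypeptide chains wound into a triple helix. The fibrillar types form the banded fibrils of connective tissue, while type IV chains assemble into the sheet-like network of the basement membrane on which epithelial cells sit. The 6 type IV chains form only certain combinations: α1 with α2, found in nearly all basement membranes; α3, α4 and α5, the network of the glomerular and some tubular basement membranes whose loss causes Alport syndrome; and α5 with α6. In the kidney, epithelial cells supply much of this basement membrane, and fibrillar and type VI collagens are largely products of stromal cells.

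The genes of the type IV pairs lie head to head, and the windows around their start sites are shown because the members of each pair were compared below. Each window was taken from RefSeq on GRCm38.p6 and runs 5′ to 3′ from 250 bases before to 50 bases after the annotated start. Capitals mark CCAAT and GGGCGG on either strand, so that ATTGG and CCGCCC are the same motifs read on the other strand, and TATAAA was searched in the same way and was not found in these 4 windows. The Col4a4 window (minus strand, chr1:82586800-82587099) also spans the annotated start of Col4a3, which lies on the plus strand 72 bases away at window position 179. The Col4a2 window (plus strand, chr8:11312555-11312854) spans the start of Col4a1, on the minus strand 21 bases downstream at window position 272. The Col4a5 (plus strand, chrX:141475169-141475468) and Col4a6 (minus strand, chrX:141474027-141474326) starts are 1343 bases apart.
Col4a4: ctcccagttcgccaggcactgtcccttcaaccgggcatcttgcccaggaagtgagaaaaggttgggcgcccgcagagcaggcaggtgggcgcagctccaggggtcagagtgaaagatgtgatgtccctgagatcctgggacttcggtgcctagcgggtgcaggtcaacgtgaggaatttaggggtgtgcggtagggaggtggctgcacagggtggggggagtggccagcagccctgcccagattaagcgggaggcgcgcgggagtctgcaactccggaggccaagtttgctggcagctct
Col4a2: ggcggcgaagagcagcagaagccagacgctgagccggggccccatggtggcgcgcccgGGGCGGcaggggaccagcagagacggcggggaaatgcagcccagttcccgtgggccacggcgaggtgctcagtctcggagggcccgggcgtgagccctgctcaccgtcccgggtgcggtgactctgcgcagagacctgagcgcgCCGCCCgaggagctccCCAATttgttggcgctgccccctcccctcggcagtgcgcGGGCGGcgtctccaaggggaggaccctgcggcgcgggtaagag
Col4a5: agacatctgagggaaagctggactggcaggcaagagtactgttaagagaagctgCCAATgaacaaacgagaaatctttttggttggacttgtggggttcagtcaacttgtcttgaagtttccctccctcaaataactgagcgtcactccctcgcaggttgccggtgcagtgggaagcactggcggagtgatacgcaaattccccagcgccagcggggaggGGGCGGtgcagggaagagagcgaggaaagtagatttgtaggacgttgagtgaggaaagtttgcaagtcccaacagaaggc
Col4a6: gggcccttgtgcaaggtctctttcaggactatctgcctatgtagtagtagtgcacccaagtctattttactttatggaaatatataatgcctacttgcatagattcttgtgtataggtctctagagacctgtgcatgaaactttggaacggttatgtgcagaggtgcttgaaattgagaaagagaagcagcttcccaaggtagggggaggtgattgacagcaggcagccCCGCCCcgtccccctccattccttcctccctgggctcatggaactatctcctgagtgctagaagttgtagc
None of the 3 motifs lies in the Col4a4 window, and the Col4a2 window holds 1 CCAAT and 3 GGGCGG motifs. Of the 35 collagen genes with a RefSeq window, 37.1% held CCAAT, 62.9% GGGCGG and 14.3% TATAAA in at least 1 window. Of all 32851 windows of this length, 37.4%, 35.7% and 13.6% did. Some collagen genes have more than 1 window, so shares of genes and of windows are unlike units. A motif match describes the letters and is not evidence of binding.

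Basement membrane collagens made up nearly all collagen mRNA of these cells. In every clone they accounted for 89.4 to 98.6% of the collagen CPM, other collagens for 0.979 to 8.07% and fibrillar collagens for 0.233 to 4.30%. Of the 44 genes, 17 reached 1 CPM in at least 1 clone, namely 7 of 8 basement membrane, 4 of 11 fibrillar and 6 of 25 other collagens. Only 6 genes did so in all 13 clones: Col18a1, Col4a3, Col4a4, Col4a5, Col4a6 and Col16a1. Col13a1, Col19a1 and Col6a4 had no count in any library, and 24 of the 44 genes stayed under 20 counts in every library.

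Compared per length of exon sequence, as CPM per kilobase (RPKM) averaged over the 8 labelled control clones, Col18a1 was highest at 116 ± 27.8 RPKM (SD, n = 8 clones). Controls of the 2 states may be the same clones under other labels, so fewer than 8 may be independent. Col18a1 encodes the core of a basement membrane proteoglycan that gives rise to endostatin. Col4a5 followed at 22.5 ± 9.67, Col4a3 at 10.2 ± 7.15, Col4a6 at 8.49 ± 4.21 and Col4a4 at 6.82 ± 5.14 RPKM. Col18a1 lay beyond the spread of Col4a5, and the gap from Col4a5 to Col4a3 exceeded the SD of either gene, whereas Col4a3, Col4a6 and Col4a4 lay within 1 SD of their neighbours among these 3. Without G7 and control 2 the values were 18.5 ± 7.34 for Col4a5, 13.4 ± 4.72 for Col4a3, 8.87 ± 4.10 for Col4a4 and 7.29 ± 4.22 RPKM for Col4a6 (n = 6 clones), so that the last 2 changed places and the gap from Col4a5 to Col4a3 was smaller than the SD of Col4a5. Col4a2 and Col4a1, the chains of the common α1 and α2 network, were far lower at 0.369 ± 0.558 and 0.119 ± 0.129 RPKM. Among the other collagens Col6a1 (3.26 ± 4.88), Col16a1 (1.11 ± 0.418) and Col7a1 (0.967 ± 1.13 RPKM) had the highest means, and among the fibrillar collagens Col5a1 (2.01 ± 2.66), Col1a1 (0.422 ± 0.248) and Col11a2 (0.0680 ± 0.0278 RPKM). For Col6a1, Col7a1, Col5a1, Col4a1 and Col4a2 the SD between clones exceeded the mean. Without G7 and control 2, Col6a1 was 1.65 ± 1.29, Col7a1 1.25 ± 1.18, Col16a1 1.14 ± 0.446, Col5a1 0.863 ± 1.004 and Col4a2 0.161 ± 0.121 RPKM (n = 6 clones), so that Col16a1 and Col7a1 changed places, and both lay within 1 SD of Col6a1.

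**Figure D1:**
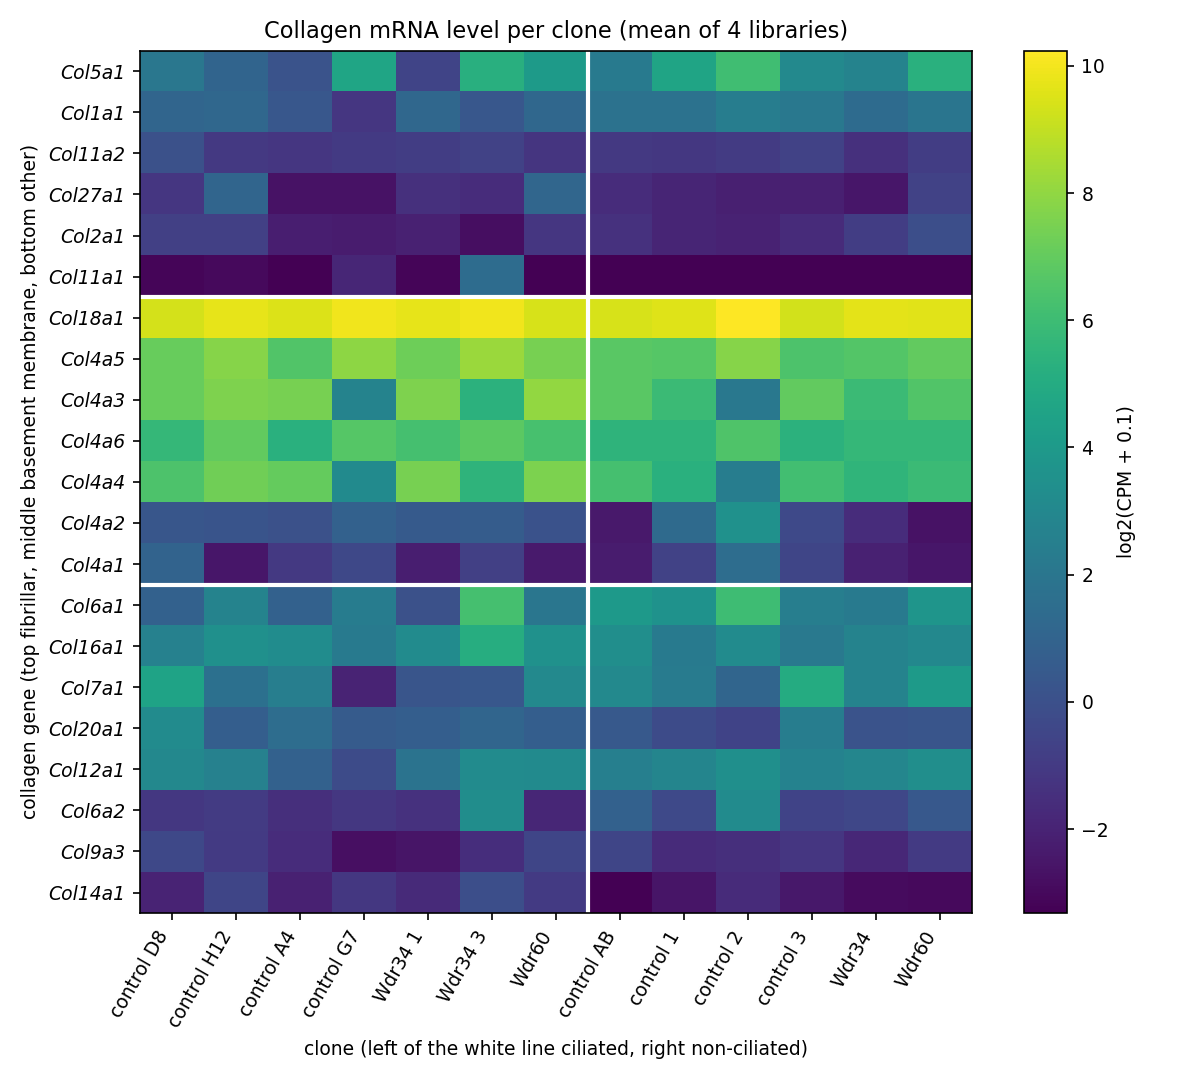
Level of the collagen genes that reached 0.5 CPM in at least 1 clone (rows, by class) in the 13 clones (columns), as log2(CPM + 0.1) of the mean of 4 libraries. Col18a1 is bright in every column, from 635 to 1209 CPM, whereas Col4a3 and Col4a4 are dark in control G7 and control 2 only.

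Summed over their members, the 8 basement membrane collagens varied 1.61-fold over the 13 clones, from 963 to 1547 CPM. The 25 other collagens varied 9.81-fold, from 13.6 CPM in control G7 to 133 CPM in Wdr34 3, and the 11 fibrillar collagens 26.6-fold, from 2.78 CPM in control A4 to 73.9 CPM in control 2. In ciliated cells the fibrillar sum was 11.1 ± 10.3 CPM in controls (SD, n = 4 clones) and 22.6 ± 19.3 CPM in mutants (n = 3). In non-ciliated cells it was 31.2 ± 29.6 CPM in controls (n = 4) and 27.8 ± 25.1 CPM in mutants (n = 2). The ranges of mutants and controls overlapped in both states. Without G7 the ciliated control mean was 6.05 ± 2.87 CPM (n = 3), and without control 2 the non-ciliated control mean was 17.0 ± 9.83 CPM (n = 3), below instead of above that of the mutants. The basement membrane sum was 1284 ± 203 CPM in ciliated controls and 1445 ± 38.6 CPM in ciliated mutants, and 1138 ± 274 and 1096 ± 25.9 CPM in the controls and mutants of the non-ciliated state. The ranges overlapped in both states, each time through 1 control. In ciliated cells this was H12 at 1539 CPM, beside 1082 to 1347 CPM in the other controls and 1401 to 1474 CPM in the mutants. In non-ciliated cells it was control 2 at 1547 CPM; the other 3 controls had 963 to 1026 CPM and the 2 mutants 1078 and 1115 CPM. Without control 2 the non-ciliated control mean of the basement membrane sum was 1002 ± 34.2 CPM, which was also below the mutants. No test was run on these sums.

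Among the basement membrane genes that reached 1 CPM in all clones, Col4a3 and Col4a4 differed by the largest fold between clones (gene IDs 12828 and 12829; GRCm38 chromosome 1, 82586921 to 82722059 and 82448419 to 82587034). In ciliated controls Col4a3 stood at 137 ± 5.46 CPM in D8, 193 ± 10.1 in H12, 174 ± 38.6 in A4 and 6.68 ± 0.740 in G7 (SD, n = 4 libraries). In ciliated mutants it stood at 196 ± 7.85 CPM in Wdr34 1, 41.6 ± 1.16 in Wdr34 3 and 262 ± 55.1 in Wdr60. In non-ciliated controls it was 108 ± 32.8 CPM in AB, 61.5 ± 3.10 in 1, 4.26 ± 0.577 in 2 and 125 ± 2.44 in 3, and in the mutants 60.4 ± 2.66 in Wdr34 and 93.8 ± 5.73 in Wdr60. G7 and control 2 were thus the low clones, Wdr34 3 came next, and mutants and controls overlapped in both states.

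For Col4a4, G7 and control 2 were again the lowest clones. It was at 8.74 ± 1.27 CPM in G7 and 5.31 ± 0.784 CPM in control 2, against 88.4 to 158 CPM in the other ciliated controls and 39.1 to 76.5 CPM in the other non-ciliated controls. Wdr34 3 had 45.8 ± 2.65 CPM. Between its highest and lowest clone Col4a3 differed 61.7-fold and Col4a4 35.9-fold. The ratio of Col4a3 to Col4a4 per exon length nevertheless stayed between 0.814 and 1.89 in all 13 clones. The ratio of Col4a3 to Col4a5, whose chains enter the same network, ran from 0.0129 in control 2 to 1.24 in control A4. An antisense transcript overlaps 563 exonic bases of Col4a3, and the strand setting of the counting is not stated, so a part of its reads cannot be assigned with certainty.

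Col4a5 and Col4a6 had high means in the clones with low Col4a3, but were called higher in control 2 alone, not in G7 or Wdr34 3. Col4a5 was 241 ± 26.3 CPM in G7, 223 ± 8.87 in control 2 and 293 ± 6.18 in Wdr34 3, the highest values besides control H12 (219 ± 17.7), and 88.3 to 174 CPM in the other 9 clones. Col4a6 was 101, 91.5 and 112 CPM in those 3 clones, 126 CPM in H12 and 38.4 to 79.6 CPM elsewhere. Their ratio per exon length was 2.07 to 3.09 over all clones. The third pair of neighbours did not keep such a ratio: Col4a1 to Col4a2 per exon length ran from 0.0657 in H12 (6 and 81 counts) to 1.48 in D8 (122 and 73 counts), and it was 0.215 in control 2 (204 and 840 counts). Among class members with counts in every clone, Col4a2 also had the widest fold range, 191-fold, at low levels. These ratios describe 13 clones, and no test was run on them.

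**Figure D2:**
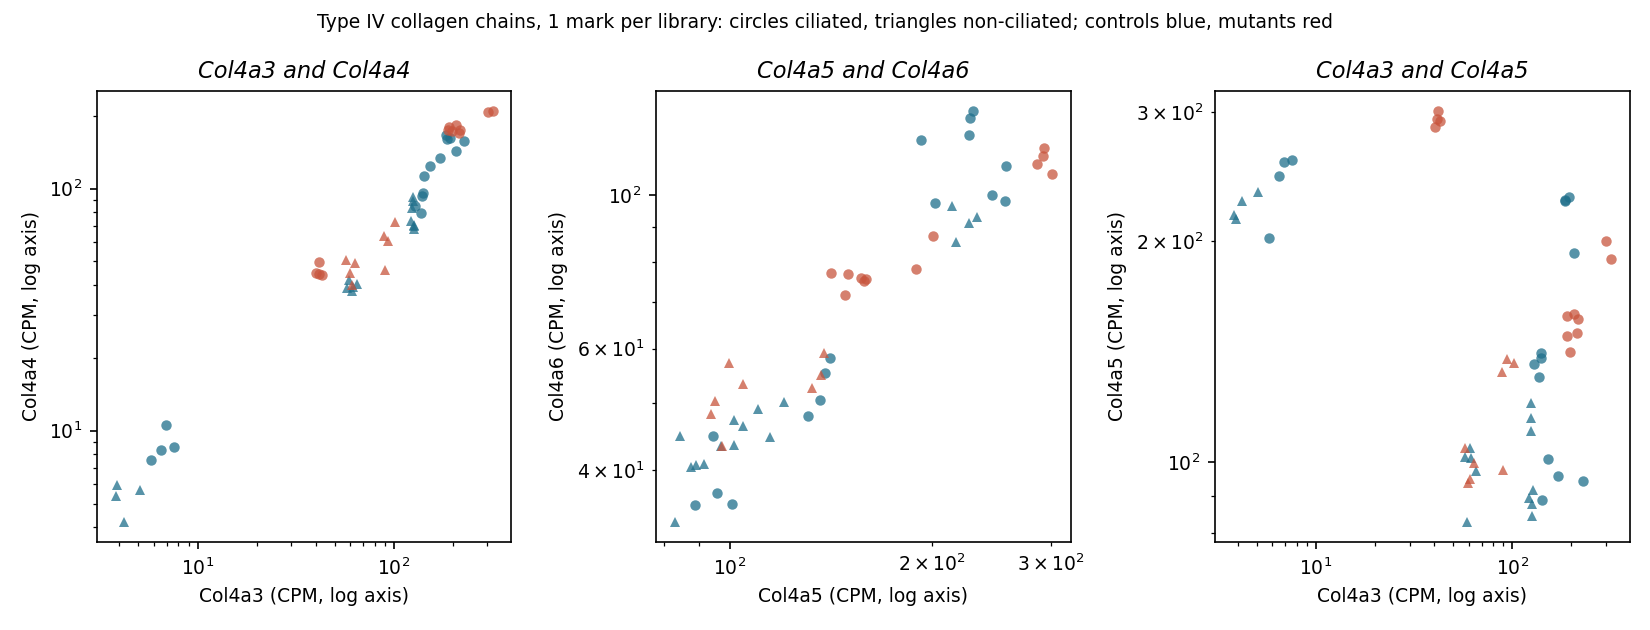
CPM of type IV chain genes in each of the 52 libraries on log axes; circles are ciliated and triangles non-ciliated libraries, controls blue and mutants red. Col4a3 and Col4a4 (left) lie along 1 line over a 61.7-fold and a 35.9-fold range of clone means, Col4a5 and Col4a6 (middle) likewise over 3.32-fold and 3.28-fold ranges, whereas Col4a3 and Col4a5 (right) do not.

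Which collagens differ between mutant and control cells with cilia was asked with edgeR's quasi-likelihood test on the libraries, and a gene was called at a Benjamini-Hochberg adjusted p below 0.05 and a change of at least 1 log2 unit. The fibrillar and basement membrane classes held no call. Of 13 collagen genes that passed the expression filter, 2 of the class of other collagens were higher, Col6a1 and Col16a1, beside 0.418% of all 11950 genes tested. None was lower, beside 0.226% of all genes; 1 collagen, Col20a1, was lower at an unadjusted p below 0.05 (log2 fold change -1.13, SE 0.36, adjusted p 0.0774 by edgeR), and DESeq2 called that gene, beside 0.83% of the genes it tested. The median log2 fold change of the 13 genes was 0.35, against -0.01 over all genes. The shares of all genes depended on 1 control clone. Without G7, 146 of 11876 genes were higher and 197 lower, against 50 and 27 with it.

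Col6a1 encodes the α1 chain of type VI collagen, which forms beaded filaments around cells (gene ID 12833; chromosome 10, 76708792 to 76726044). In the ciliated mutants it was 0.940 ± 0.326 CPM in Wdr34 1, 74.5 ± 3.04 in Wdr34 3 and 3.89 ± 0.831 in Wdr60. In the ciliated controls it was 1.73 ± 0.258 CPM in D8, 6.64 ± 0.759 in H12, 1.78 ± 0.168 in A4 and 5.17 ± 1.07 in G7. Only Wdr34 3 lay above all controls, and Wdr34 1 lay below them. The log2 fold change was 2.77 (SE 0.66, adjusted p 0.0192 by edgeR), higher in 1 of 3 mutant clones. Without Wdr34 3 the sign turned, to -0.68 (adjusted p 0.354 by edgeR).

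Col16a1, a FACIT (gene ID 107581; chromosome 4, 130047817 to 130099277), was 9.21 ± 1.29 CPM in Wdr34 1, 34.6 ± 2.81 in Wdr34 3 and 11.4 ± 1.53 in Wdr60. The ciliated controls had 6.02 ± 0.315 CPM in D8, 11.2 ± 1.38 in H12, 9.66 ± 0.581 in A4 and 4.79 ± 1.21 in G7. Again Wdr34 3 alone stood clear of the controls. The log2 fold change was 1.21 (SE 0.26, adjusted p 0.00991 by edgeR) and fell to 0.37 without Wdr34 3 (adjusted p 0.282 by edgeR). The Col6a1 call was also lost without control A4. Both calls were lost without any 1 of the 4 library numbers, without control D8, when the libraries of a clone were summed (0.0% of all genes were called), and with clone as a random block (0.0586%). Over clone means, the exact two-sided permutation test of 35 splits gave p 0.171 for Col16a1 and p 0.686 for Col6a1, where the smallest p it allows is 0.0286.

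Col5a1, the type V chain that joins fibrils as they start to form, differed widely among the mutants without a call. It was 0.589 ± 0.278 CPM in Wdr34 1, 37.1 ± 1.83 in Wdr34 3 and 16.5 ± 1.53 in Wdr60, against 4.07 ± 0.971, 2.0004 ± 0.681, 1.004 ± 0.407 and 25.1 ± 2.31 CPM in D8, H12, A4 and G7. The lowest and the highest value were both in Wdr34 mutants. The log2 fold change was 1.15 (SE 0.69, adjusted p 0.380 by edgeR). Col18a1 was nearly level between the genotypes, with a log2 fold change of 0.06 (SE 0.10, adjusted p 0.814 by edgeR), as were Col4a5 at 0.24 (SE 0.19) and Col4a6 at 0.14 (SE 0.21).

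Each ciliated mutant clone was then set against the same 4 controls. In Wdr34 3, 4 of 20 tested collagens were higher and none lower, where 3.64% of all 12553 genes were higher and 2.16% lower. Col11a1 and Col6a2 were not tested in the other ciliated clones and passed the filter through Wdr34 3, where they are high, so the count of 4 is a description and is not read against these shares. Of the collagens, 2 were lower at an unadjusted p below 0.05, and DESeq2 called 2 lower, beside 2.82% of its genes. Leaving out 1 clone or library number gave 0 to 4 lower collagens. Without G7, 798 of all 12500 genes were higher and 834 lower. The 4 higher collagens were Col11a1 (5.45, SE 0.59, adjusted p 1.41e-06 by edgeR), Col6a2 (4.78, SE 0.30, adjusted p 3.71e-10), Col6a1 (4.25, SE 0.37, adjusted p 5.76e-08) and Col16a1 (2.11, SE 0.23, adjusted p 1.94e-06), all as log2 fold changes. The calls of Col6a1 and Col16a1 held without any single control clone or library number; the values of Col11a1 and Col6a2 describe where these genes were high. Col6a2, the partner chain of Col6a1, was 9.89 ± 0.316 CPM in Wdr34 3 and 0.258 to 0.412 CPM in the controls. Col11a1, a fibrillar chain best known from cartilage, had 33 to 64 counts in each Wdr34 3 library, 13 counts in all of G7, 1 in D8, 2 in H12 and 0 in A4, and 0 in all 24 non-ciliated libraries.

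Wdr34 3 also had 197 CPM of Vim and 29.2 CPM of Dcn, a proteoglycan of fibrous tissue, whose levels in the other ciliated mutants were 4.48 and 9.49 CPM for Vim and 0.161 and 0.0535 CPM for Dcn. Of 12 fibroblast and mesenchymal markers, the defining genes Thy1 and Twist1 had 0 counts in all 52 libraries, and these were the 2 at 0 in Wdr34 3; Fap and Lum reached at most 0.0512 and 0.0964 CPM in any clone. The summed level of this list was 234 CPM in Wdr34 3, 6.26 and 10.8 CPM in the other ciliated mutants, and 5.40 to 180 CPM in the ciliated controls. Of 4 markers of this list tested against the controls, Dcn was called higher in Wdr34 3 and Vim was not, beside 3.64% of all genes. Whether Dcn reached the expression filter through Wdr34 3 was not checked, so this call is a description. Of 10 tested epithelial markers, Krt8 and Krt18 were called lower, beside 2.16% of all genes. The part of these differences in the collagen result was not tested.

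The other 2 ciliated mutants had no call. In Wdr34 1, 0 of 17 tested collagens were called by edgeR, beside 0.679% of 12380 genes; 4 had an unadjusted p below 0.05, all lower, and DESeq2 called 2 lower, beside 1.37% of its genes. In Wdr60, 0 of 19 were called by edgeR, beside 1.93% of 12456 genes; 1 had an unadjusted p below 0.05, also lower, and DESeq2 called 1 lower, beside 2.23% of its genes. Whether the effect in Wdr34 3 differs from that in the other mutant clones was not tested.

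**Figure D3:**
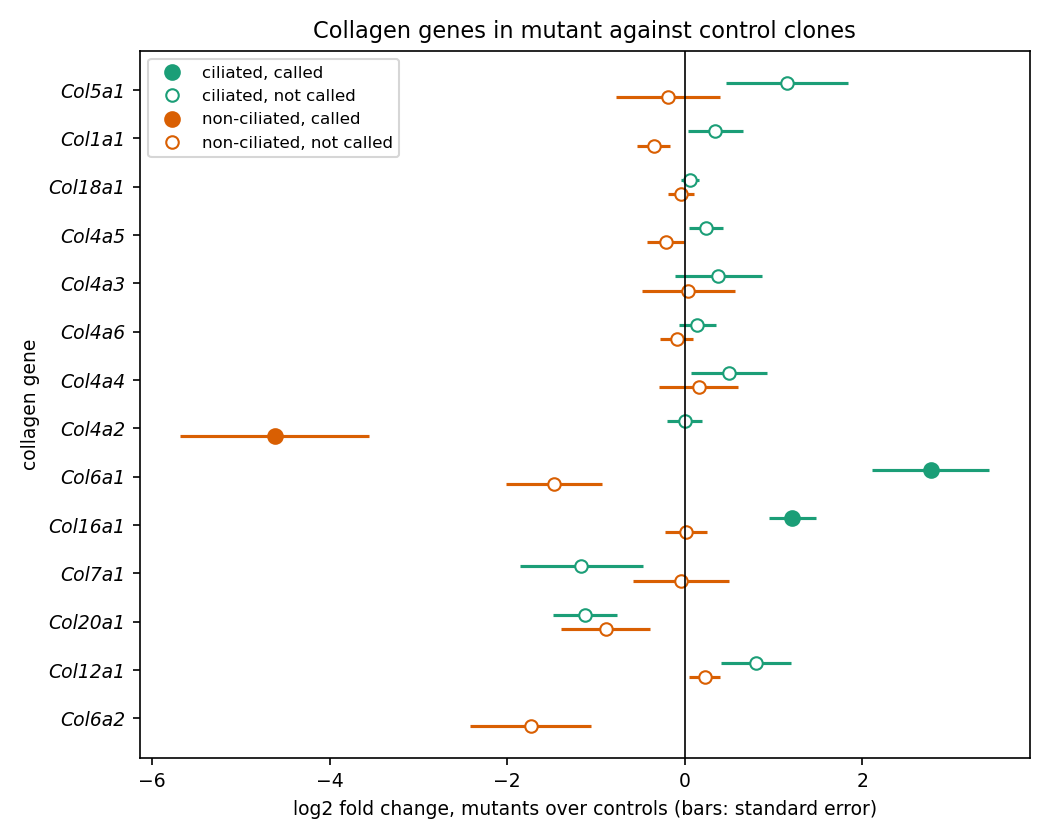
Log2 fold change of mutant over control clones with its standard error for the collagen genes tested, in ciliated (green) and non-ciliated (orange) cells; filled points were called. The called points are Col6a1 and Col16a1, higher in ciliated mutants, and Col4a2, lower in non-ciliated mutants.

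In non-ciliated cells the called collagen was of the basement membrane class. Of 14 tested genes, Col4a2 was lower and none higher, where 2.57% of all 12012 genes were lower and 0.491% higher. Col4a2 passed the filter only with both control 1 and control 2 in the fit, where it is high, so the count of 1 is a description and is not read against that share. No collagen was higher at an unadjusted p below 0.05, and DESeq2 called 1 higher, beside 0.762% of its genes. The median log2 fold change of the 14 genes was -0.14, against 0.00 over all genes. Col4a2 (gene ID 12827; chromosome 8, 11312805 to 11449287) was 0.227 ± 0.0294 CPM in the Wdr34 clone and 0.0598 ± 0.0483 CPM in the Wdr60 clone, from 15 and 4 counts in all. The controls had 0.0905 ± 0.0663 CPM in AB, 2.50 ± 0.551 in 1, 11.4 ± 0.524 in 2 and 0.694 ± 0.207 in 3. Control AB lay within the range of the mutants, and control 2 was far above every other clone. Of 3 tested mesenchymal markers, Acta2, smooth muscle actin, was also called lower in these mutants (-3.17, SE 0.80, adjusted p 0.00922 by edgeR) and in the Wdr60 clone. It was 0.272 and 0.0161 CPM in the Wdr34 and Wdr60 clones, 3.91 CPM in control 1 and 0.413 to 0.744 CPM in the other controls, and its part in the Col4a2 value was not tested. The log2 fold change was -4.62 (SE 1.06, adjusted p 0.00519 by edgeR). Without control 1 or without control 2 the gene no longer passed the expression filter, and without the Wdr60 clone the value was -3.98 (adjusted p 0.0812 by edgeR). It was not called when the libraries of a clone were summed (0.0% of all genes were called) or with clone as a random block (0.0749%). Over clone means, the exact two-sided permutation test of 15 splits gave p 0.267, where the smallest possible is 0.0667.

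Each non-ciliated mutant clone was also set against the 4 controls of its state. In the Wdr60 clone 1 of 16 tested collagens was called, Col4a2 (log2 fold change -5.78, SE 1.77, adjusted p 0.0361 by edgeR), where 2.43% of 12371 genes were lower and 0.986% higher; with 4 Col4a2 counts in all of this clone, the call is likewise a description. None was higher at an unadjusted p below 0.05 and DESeq2 called 2 higher, beside 1.22% of its genes. The Col4a2 call was lost with a replicate block (adjusted p 0.0679 by edgeR), without any 1 of the 4 library numbers (adjusted p 0.0505 to 0.147 by edgeR) and without control 1 (adjusted p 0.0697 by edgeR). In the Wdr34 clone 0 of 15 were called by edgeR, beside 2.24% of 12355 genes, although all 15 fitted values were below 0, with a median of -0.63 against -0.02 over all genes. Control 1 against the other controls likewise had 0 of 15 values above 0, with a median of -0.50, and both references hold control 2. Of the Wdr34 values, 6 had an unadjusted p below 0.05, namely Col6a1 (-2.46, SE 0.81, adjusted p 0.0515), Col4a2 (-3.98, SE 1.47, adjusted p 0.0812), Col4a1 (-2.81, SE 1.05, adjusted p 0.0860), Col1a1, Col5a1 and Col6a2, and DESeq2 called 5 collagens lower, beside 3.46% of its genes. All comparisons of single clones within a state use the same control libraries.

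The difference of mutants from controls was compared between the states with an interaction term. The study had the glycine-to-serine Wdr34 allele in ciliated cells only, so the term does not compare the same alleles. Of 17 tested collagens 3 differed, all with the higher value in ciliated cells, beside 1.12% of all 12544 genes higher and 0.0638% lower. They were Col6a2 (difference of log2 fold changes 5.01, SE 1.06, adjusted p 0.00706 by edgeR), Col4a2 (4.63, SE 0.89, adjusted p 0.00242) and Col6a1 (4.24, SE 0.94, adjusted p 0.00963). By edgeR 0 collagens differed in the other direction, and 0 did so at an unadjusted p below 0.05. DESeq2 called 5 in either direction, beside 1.95% of its genes. For Col6a1 the log2 fold change was 2.77 in ciliated and -1.47 in non-ciliated mutants, and for Col4a2 it was 0.00 and -4.62. Col6a2 was at 0.276, 9.89 and 0.179 CPM in the ciliated mutants Wdr34 1, Wdr34 3 and Wdr60, and at 0.630 and 1.21 CPM in the non-ciliated mutants. Without Wdr34 3 the Col6a1 and Col6a2 differences were 0.80 and 1.11 and not called (adjusted p 0.671 and 0.626 by edgeR). Without control 2 they were 3.08 and 3.41 and not called either (adjusted p 0.0782 and 0.0709 by edgeR), nor were they without the non-ciliated Wdr34 clone (adjusted p 0.117 and 0.0767 by edgeR). Among the library numbers, the Col6a1 and Col6a2 calls held without number 1 alone, and the Col4a2 call was lost without number 2 (adjusted p 0.0552 by edgeR). With G7 and control 2 both left out, an alternative chosen after seeing the data, the 3 genes were called. None was called when the libraries of each clone were summed or with clone as a random block, where 0.0% of all genes were called in either case.

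Control clones were compared between states next. Of 13 tested collagens, 4 were lower in ciliated than in non-ciliated controls and none higher, where 3.99% of all 11856 genes were lower and 6.29% higher. Of the collagens 4 were higher at an unadjusted p below 0.05, and DESeq2 called 3 higher, beside 7.55% of its genes. The 4 lower genes were Col6a1 (log2 fold change -2.68, SE 0.42, adjusted p 2.01e-06 by edgeR), Col5a1 (-1.70, SE 0.58, adjusted p 0.0123), Col4a2 (-1.59, SE 0.56, adjusted p 0.0145) and Col1a1 (-1.46, SE 0.27, adjusted p 1.97e-05). The median of the 13 values was -0.03, against 0.02 over all genes. With the libraries of a clone summed, 0 of the 4 were called by edgeR (adjusted p 0.0644 for Col6a1, 0.101 for Col1a1, 0.331 for Col5a1 and 0.354 for Col4a2), where 2.24% of all genes were called lower.

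Col1a1, the main chain of type I collagen of bone, skin and tendon (gene ID 12842; chromosome 11, 94936224 to 94953042), was low in both states. It was 2.09 ± 0.507 CPM in D8, 2.25 ± 0.447 in H12, 1.21 ± 0.310 in A4 and 0.343 ± 0.125 in G7. The non-ciliated controls had 3.31 ± 0.235 CPM in AB, 3.35 ± 0.960 in 1, 5.34 ± 0.945 in 2 and 4.27 ± 0.305 in 3. All non-ciliated controls were above all ciliated controls, and Col1a1 was the 1 collagen whose clone means did not overlap, where 12.5% of all genes were separated in this direction. The exact two-sided permutation test over 70 splits gave p 0.0286, the smallest it allows, and 0.124 after adjustment over all genes. Without G7 and control 2 its log2 fold change was -0.98 (adjusted p 2.27e-05 by edgeR), just short of 1.

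Col6a1 was 1.73 to 6.64 CPM in ciliated and 5.39 to 65.8 CPM in non-ciliated controls, in the order 3, 1, AB and 2 (5.39 ± 0.613, 11.9 ± 0.388, 15.9 ± 0.923 and 65.8 ± 3.41 CPM). H12 and control 3 overlapped, and the exact permutation test over clones gave p 0.0571. The Col6a1 call held without G7 and control 2, at -1.70 (adjusted p 7.10e-05 by edgeR), as did that of Col5a1 at -2.39 (adjusted p 8.93e-06 by edgeR). Without control 2 alone the Col5a1 value was -0.61 (adjusted p 0.353 by edgeR), and its call was also lost without D8, H12 or A4 (adjusted p 0.0528 to 0.0624 by edgeR).

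Col5a1 (gene ID 12831; chromosome 2, 27886381 to 28039510) was 4.73 ± 0.749 CPM in AB, 24.0 ± 0.326 in 1, 67.7 ± 2.92 in 2 and 8.22 ± 1.004 in 3, against 1.004 to 25.1 CPM in the ciliated controls given above. The states overlapped for Col5a1 (exact permutation p 0.171), and 212 of its exonic bases overlap antisense transcripts.

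The Col4a2 difference rested on control 2. Ciliated controls had 1.16 ± 0.393 CPM in D8, 1.05 ± 0.148 in H12, 0.918 ± 0.411 in A4 and 1.73 ± 0.273 in G7, within the range of the non-ciliated controls of 0.0905 to 11.4 CPM. Without control 2 the log2 fold change was 0.16 (adjusted p 0.759 by edgeR), and the exact permutation p over clones was 0.971. Of 12 mesenchymal markers 2 were tested, Vim and S100a4, and both were also called lower in ciliated controls, beside 3.99% of all genes. Vim was at 3.48 to 149 CPM against 50.1 to 658 CPM in non-ciliated controls. The part of these markers in the collagen result was not tested.

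**Figure D4:**
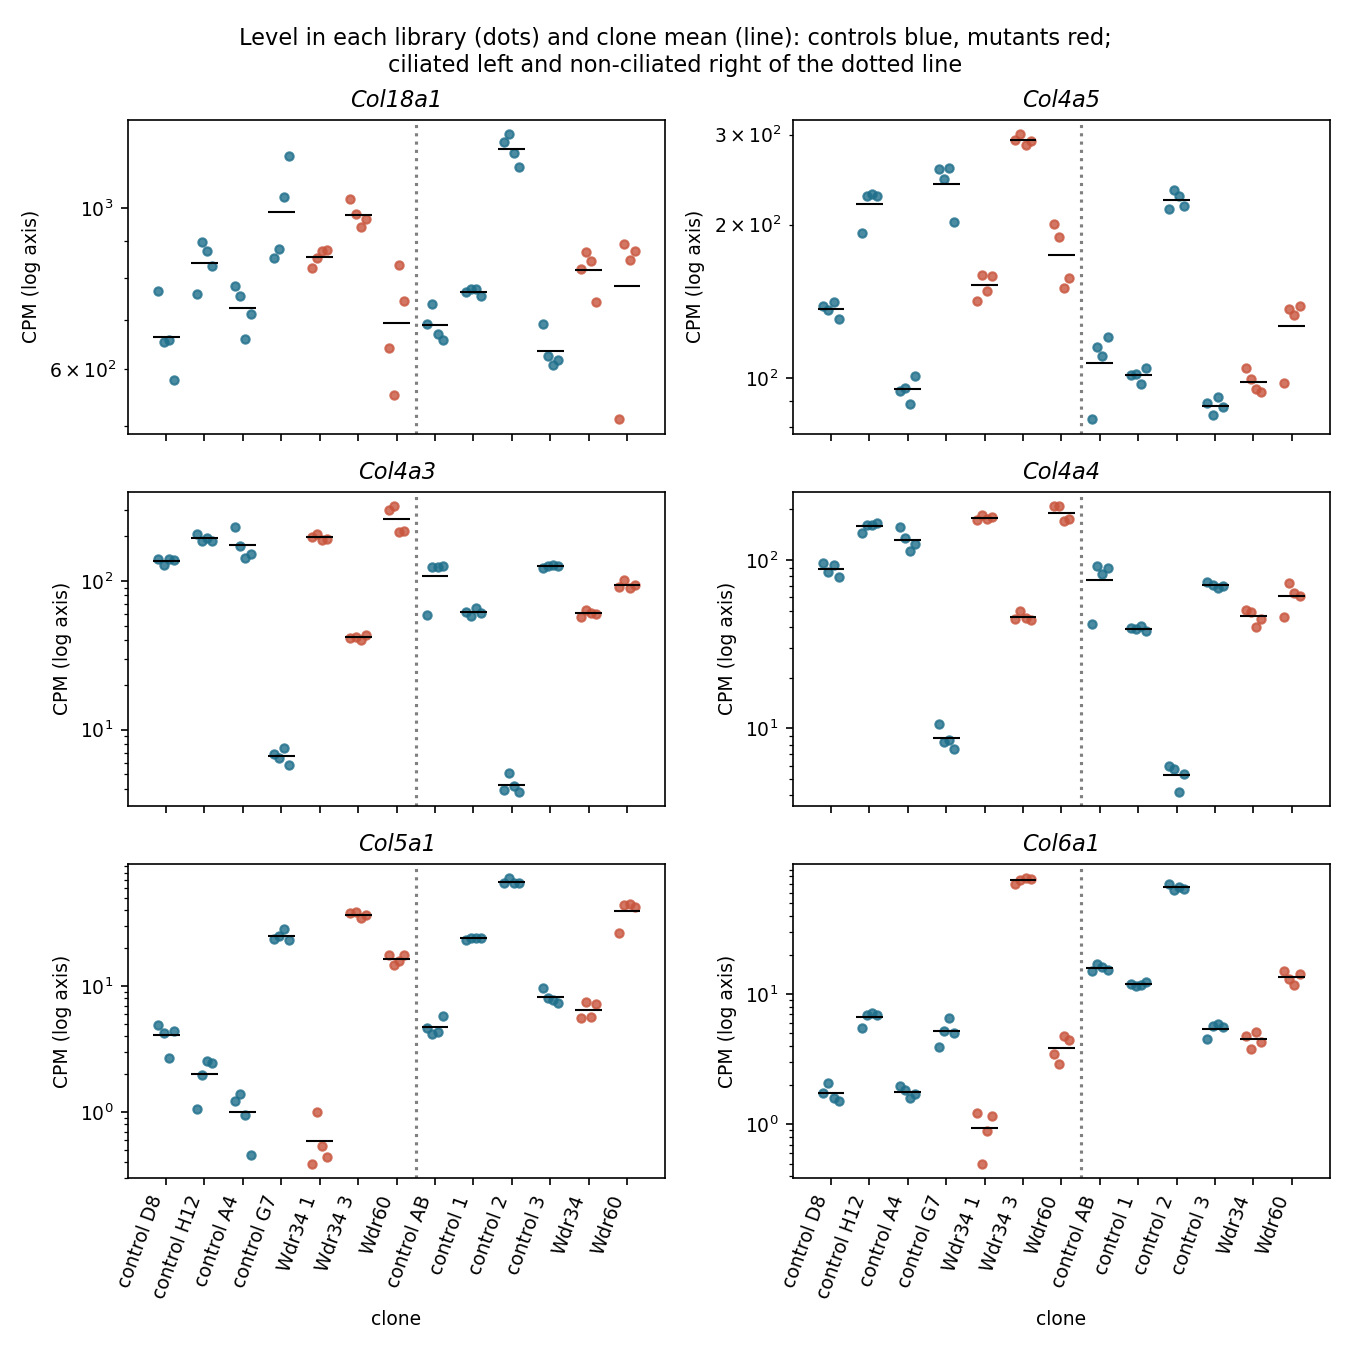
CPM in each library (dots) and clone mean (lines) of 6 collagen genes on log axes, with ciliated clones left and non-ciliated clones right of the dotted line, controls blue and mutants red. Control G7 and control 2 are lowest for Col4a3 and Col4a4, while Wdr34 3 and control 2 are highest for Col6a1 at 74.5 and 65.8 CPM.

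Control clones also differed from each other. Each control was set against the other 3 of its state with the same test. Control 2 had 11 of 15 tested collagens called, 7 higher and 4 lower, where 4.48% of all 12327 genes were higher and 8.39% lower. G7 had 8 of 17 called, 1 higher and 7 lower, where 5.27% of 12325 genes were higher and 12.9% lower. D8 had 5 of 17 (5.02% of all genes), H12 3 of 17 (4.08%), A4 2 of 17 (2.25%), AB 3 of 15 (6.06%), and the control named 3 likewise 3 of 15 (2.6%). These counts are descriptions and are not read against the shares, because some genes reached the expression filter through 1 clone. In ciliated controls these were Col4a1, Col11a2 and Col2a1 through D8 and Col27a1 and Col2a1 through H12, and in non-ciliated controls Col4a1 through control 2. Control 1 had none by edgeR (2.18%), with 3 at an unadjusted p below 0.05 and 1 called by DESeq2 (3.32% of its genes). By comparison the 5 single mutant clones had 0, 4, 0, 0 and 1 collagens called. The 8 control comparisons are not independent, since each clone also stands in the reference of the other 3 of its state, and whether controls and mutants differ in how often collagens were called was not tested.

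**Figure D5:**
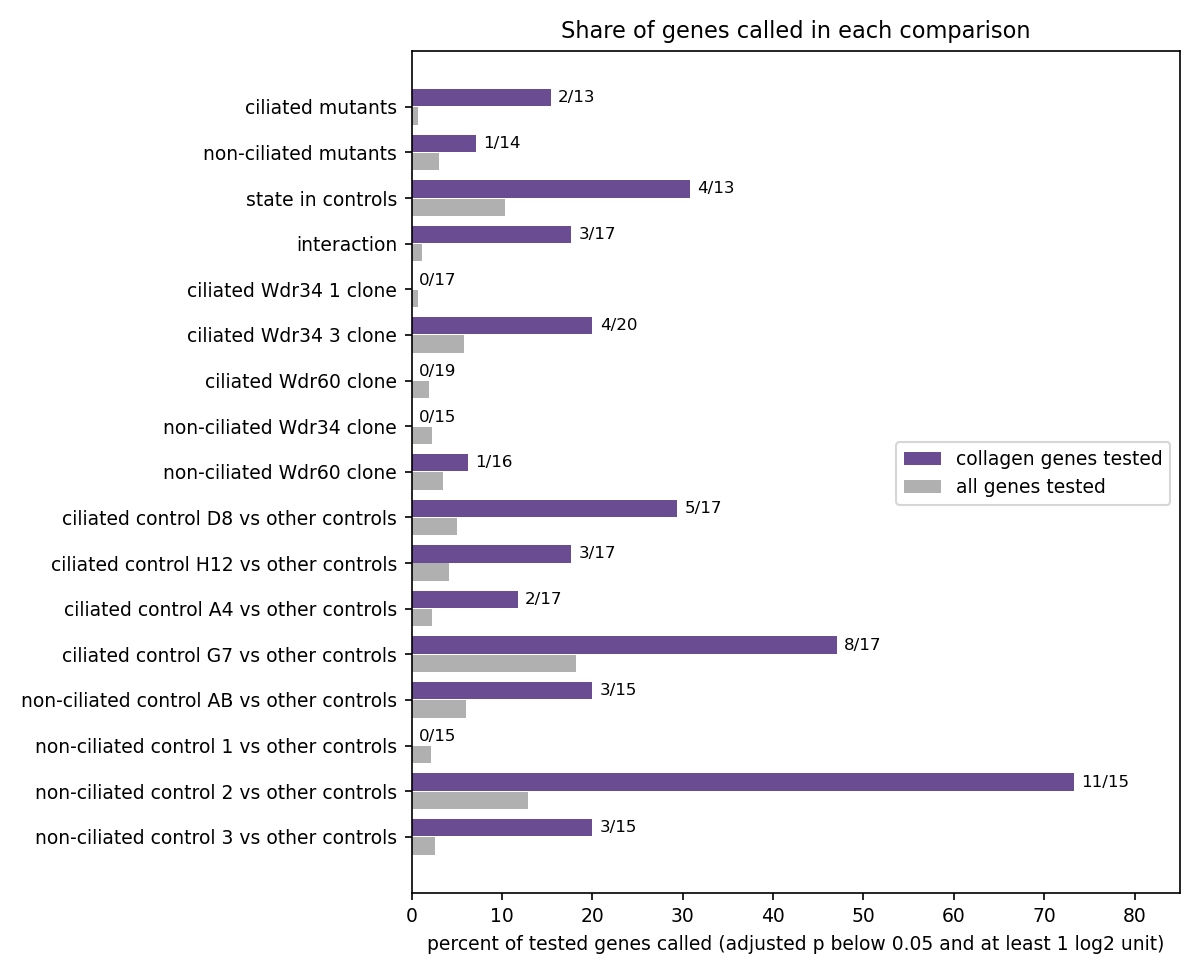
Percent of tested collagen genes (purple, with called and tested numbers) and of all tested genes (grey) that were called in each comparison, on an axis from 0. Non-ciliated control 2 (11 of 15) and ciliated control G7 (8 of 17) have the longest purple bars.

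In control 2 against the other non-ciliated controls, the α3 and α4 genes of type IV fell and the other 4 type IV genes rose. Col4a3 changed by -4.51 (SE 0.35, adjusted p 1.17e-08 by edgeR) and Col4a4 by -3.53 (SE 0.32) on the log2 scale. Col4a2 rose by 3.42 (SE 0.62), Col4a1 by 2.73 (SE 0.43), Col4a5 by 1.19 (SE 0.09) and Col4a6 by 1.08 (SE 0.08). Col4a1 had passed the filter through control 2, so its value describes where it was high. Col6a2 rose by 3.21 (SE 0.39), Col6a1 by 2.59 (SE 0.27) and Col5a1 by 2.49 (SE 0.42), whereas Col7a1, the anchoring fibril chain that ties basement membrane to stroma, changed by -2.89 (SE 0.73) and Col20a1 by -2.09 (SE 0.72). The range of adjusted p over these genes was 5.16e-09 to 0.0242 by edgeR. The Col20a1 call was lost without any 1 library number, and the other 10 held.

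In G7 against the other ciliated controls, Col4a3 changed by -4.65 (SE 0.19, adjusted p 2.09e-12 by edgeR) and Col4a4 by -3.85 (SE 0.25), and Col7a1 by -5.96 (SE 1.02), from 23.1, 3.12 and 5.46 CPM in D8, H12 and A4 to 0.151 CPM. Col1a1, Col12a1, Col20a1 and Col27a1 were lower as well, by -2.40 (SE 0.36), -2.75 (SE 0.57), -1.69 (SE 0.61) and -3.61 (SE 1.31). Col5a1 was the higher gene, at 3.43 (SE 0.38, adjusted p 7.91e-07 by edgeR). Col20a1 and Col27a1 lost their calls without any 1 library number. Col27a1 had passed the filter through H12, and Col20a1, at 1.39 CPM in G7, was 9.38 CPM in D8 but 1.57 and 2.81 CPM in H12 and A4. Against the other controls of its state, each of G7 and control 2 thus had low Col4a3, Col4a4 and Col7a1 and high Col5a1, while Col6a1 in G7 lay among the other ciliated controls. Whether G7 and control 2 are the same clone under other labels was not tested, so they may not be independent.

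The epithelial markers moved with these collagens. In both clones Krt7, Krt8, Krt18, Krt19, Cdh1 and Epcam were called lower, 6 of 10 tested, beside the 12.9% of all genes in G7 and 8.39% in control 2. Pax2 was called higher in both and Cdh16 in G7. Postn, periostin of the matrix, was 29.3 CPM in G7 and 7.48 CPM in control 2, with at most 0.167 CPM in the other 6 control clones. Of the fibroblast and mesenchymal markers, Dcn, Postn and Vim were called higher in G7, of 4 tested, and Postn and Vim in control 2, of 5 tested, with none lower. At the levels given, Postn reached the expression filter through these 2 clones alone, so its calls describe where it was high. Whether Dcn passed through G7 was not checked, so its call there is a description too. Of the 9 chondrocyte markers 3 were tested in each clone, and of the 6 leukocyte markers 2 in G7 and 3 in control 2. Among these, Sox9 was called lower in both clones, Matn3 higher and Cd68 lower in G7, and Ptprc lower in control 2. Sox5 and Csf1r were higher in ciliated than in non-ciliated controls (2.25, SE 0.22, and 2.66, SE 0.17) and none was called in the pooled mutants of either state. Without G7, Sox9 (-1.55, SE 0.42), Cd68 (-1.19, SE 0.23) and the keratin Krt19 (-1.53, SE 0.31) were lower in ciliated mutants. In single mutant clones Matn3 was lower in non-ciliated Wdr60, Cd68 in Wdr34 3 and Csf1r in non-ciliated Wdr34. All 7 endothelial markers summed to at most 0.462 CPM in any clone. The part of the markers in the collagen differences was not tested.

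The other control clones differed in fewer genes. D8 had higher Col7a1 (23.1 ± 5.67 CPM; log2 fold change 2.98, SE 0.73), Col20a1 (9.38 ± 1.11 CPM; 2.27, SE 0.25), Col4a1 and Col11a2 and lower Col6a1. H12 had higher Col27a1 (2.05 CPM; 3.72, SE 0.59), which passed the filter through H12, and higher Col6a1 and lower Col4a1. Col4a1 and Col11a2 likewise passed through D8. A4 had lower Col4a5 (-1.07, SE 0.20) and Col4a6 (-1.28, SE 0.29), calls that held without library number 1 alone. AB had lower Col4a2 (-5.61, SE 1.27), Col4a1 (-3.53, SE 0.85) and Col5a1 (-2.81, SE 0.72). Control 3 had higher Col7a1 (32.6 ± 4.56 CPM; 2.70, SE 0.37) and Col20a1 (5.18 ± 0.741 CPM; 2.59, SE 0.28) and lower Col6a1 (-2.54, SE 0.66). Without any 1 library number the Col6a1 calls of D8, H12 and control 3 were lost, as was that of Col4a1 in D8 for all but number 3 and in H12 for numbers 2 and 3, and that of Col7a1 in D8 for number 1. Col7a1 and Col20a1 were thus high together in D8 and control 3, relative to the control clones of the same state. Controls of different states may be 1 clone under other labels, so a pattern shared by them may not come from independent clones. Within type IV, Col4a3 and Col4a4 were called together in G7 and control 2, and Col4a5 and Col4a6 in A4 and control 2. Col4a1 was called with Col4a2 in AB and control 2 and without it in D8 and H12. Col4a1 passed the filter through D8 in ciliated and through control 2 in non-ciliated controls, so its calls are descriptions only.

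These calls were recomputed with G7 or control 2 left out of the reference, an alternative chosen after seeing the data. AB kept lower Col4a2 (-3.96, SE 0.75, adjusted p 0.00109 by edgeR) and Col5a1 (-1.74, SE 0.41, adjusted p 0.00476), whereas Col4a1 no longer passed the filter. Control 3 kept lower Col6a1 (-1.36, SE 0.15, adjusted p 5.57e-05 by edgeR), and its higher Col7a1 and Col20a1. D8 lost Col6a1 (-1.29, adjusted p 0.0717 by edgeR) and A4 lost Col4a5, which was below 1 log2 unit (-0.92). Control 1 had no call against all 3 others. With control 2 left out it was higher in Col4a2 (2.62, SE 0.55) and Col5a1 (1.86, SE 0.20) and lower in Col7a1 and Col20a1. Calls were gained in other clones as well. AB was higher in Col6a2 (1.51, from -0.996 against all 3 others) and Col16a1 (1.20). D8 was higher in Col5a1 (1.42, from -1.21). H12 was higher in Col4a6 (1.48) and lower in Col7a1 (-2.17) and Col20a1 (-1.93). A4 was lower in Col12a1 (-2.01), Col5a1 (-1.59) and Col27a1 (-4.28). Of the collagens tested, 5 of 17 were called in D8, 6 of 17 in H12, 4 of 17 in A4, 4 of 14 in AB, 4 of 14 in control 1 and 3 of 14 in control 3, beside 5.29%, 8.65%, 4.22%, 6.17%, 5.56% and 3.2% of all genes.

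Genes that process collagen were counted from lists of folding and modification enzymes, export factors, cleavage and crosslinking enzymes, and receptors. In ciliated mutants none of 14, 9, 5 and 5 tested genes was called, with medians of -0.04, 0.09, 0.30 and -0.12 against -0.01 over all genes. In non-ciliated mutants 3 were lower and none higher, where 2.57% of all genes were lower: P3h1, a prolyl 3-hydroxylase (1 of 14 tested; -1.06, SE 0.27, adjusted p 0.0108 by edgeR), Loxl3, a lysyl oxidase that crosslinks collagen (1 of 7; -2.001, SE 0.35, adjusted p 0.000556), and Itga1, a subunit of a collagen-binding integrin (1 of 6; -2.72, SE 0.59, adjusted p 0.00333). None of 9 export genes was called. With the libraries of a clone summed, 0.0% of all genes were called in these mutants, so the 3 calls were lost. Without control 2, Loxl3 (-1.58, SE 0.29) and Itga1 (-1.69, SE 0.39) were called and P3h1 was below 1 log2 unit (-0.59, SE 0.17). Without G7, P3h2 was called higher in ciliated mutants (1.26, SE 0.23, adjusted p 0.000962 by edgeR). In ciliated against non-ciliated controls, where 3.99% of all genes were lower and 6.29% higher, P4ha1 was lower among 14 tested folding genes, Loxl1 and Pcolce2 were lower among 6 cleavage genes, Itga10 was lower and Itga1 higher among 6 receptors, and none of 9 export genes was called. Without G7 and control 2 these genes kept their calls, and the folding gene P4ha2 was called higher (1.10, SE 0.26, adjusted p 0.000605 by edgeR). By interaction Loxl3 was higher (2.31, SE 0.57, adjusted p 0.0212 by edgeR), beside 1.12% of all genes. That call was lost with clones summed and with clone as a random block, where no gene was called. Without G7 and control 2, Loxl3 (2.11), Ddr2 (4.52), Itga1 (2.32), P3h2 (1.39) and Pcolce (1.18) were higher by interaction and Pcolce2 (-1.06) was lower. Of all 12457 genes, 230 were higher and 89 lower in that fit.

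In Wdr34 3, 3 of 8 tested cleavage and crosslinking genes were higher and none lower, beside 3.64% of all genes. Lox, a lysyl oxidase, passed the filter through this clone, so its call describes where it was high. The 3 were Lox (6.99, SE 0.58, adjusted p 3.47e-08 by edgeR), Loxl3 (1.53, SE 0.23) and Pcolce (1.17, SE 0.27), which enhances the cleavage of procollagen. Of 6 tested receptors, Ddr2, a collagen receptor kinase, was higher (4.52, SE 0.81) and Itga2 lower (-5.05, SE 1.55). Lox was 8.37 ± 1.11 CPM there and at most 0.224 CPM in every other clone. Loxl3 was 11.2 ± 1.40 CPM in Wdr34 3, 2.22 ± 0.619 in Wdr34 1 and 0.835 ± 0.227 in the ciliated Wdr60 clone, against 2.75 to 5.39 CPM in the ciliated controls, and it was called lower in the ciliated Wdr60 clone (-2.19, SE 0.33, adjusted p 0.000305 by edgeR) and in both non-ciliated mutants. P3h1 was 28.6 ± 1.87 CPM in Wdr34 3, 31.8 ± 2.12 in G7 and 22.7 ± 0.604 in control 2, and 2.13 to 10.9 CPM in the other 10 clones. In G7, where 5.27% of all genes were higher and 12.9% lower, 3 of 15 tested folding genes were higher (P3h1, P3h2 and P4ha3) and 2 lower (P4ha1 and Plod2). Of 7 cleavage genes there, Adamts14 and Pcolce were higher and Bmp1, Loxl1, Loxl4 and Pcolce2 lower, and of 6 receptors Ddr2 and Itga1 were higher and Itga2 lower. In control 2, where 4.48% of all genes were higher and 8.39% lower, the same 3 folding genes of 15 were higher and none lower, Adamts14 and Loxl3 of 8 cleavage genes were higher and Loxl4 and Pcolce2 lower, and of 6 receptors Itga1 was higher and Itga2 lower. None of 9 export genes was called in either clone. Whether P4ha3 and Adamts14 reached the expression filter through these clones was not checked, so the counts that hold them are descriptions. The 3 clones with the highest P3h1 were also those with the lowest Col4a3.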

How the data were processed

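Per the labels and the submitters' processing notes, total RNA of 52 libraries (13 clones, 4 each) was sequenced, reads were mapped to GRCm38 (mm10) and the authors deposited raw counts per gene symbol, made with featureCounts in R 3.4.4; their own tests used DESeq2 1.18.1. The handling of strand and multi-mapped reads is not given in the sources used here. Reads shared by overlapping genes can therefore bias low members. From the counts, edgeR 4.0.16 (R 4.3.3) quasi-likelihood tests were fitted on all genes passing filterByExpr with TMM scaling, and p-values were adjusted over all of them by the Benjamini-Hochberg method. Genes were called at an adjusted p below 0.05 and 1 log2 unit. Libraries of a clone are technical repeats, so these p-values measure mostly the spread between libraries, and exact two-sided permutation tests over clone means (log2 CPM, prior count 1) stand beside them. The alternatives were DESeq2 1.42.0, voomLmFit (edgeR with limma 3.58.1) with clone as a block, clones summed, other filters and scaling, a replicate block, and omission of each clone or library number. Scripts were tested on simulated data. CPM used TMM-scaled totals, and RPKM the union of GENCODE exons of the same build. None of the 78 pairs of libraries within clones held identical counts. Members, classes and lists were chosen with earlier results of these data known. Named with values per clone were members called in a group comparison or the interaction, up to 5 called per direction in single mutant clones, and the 3 highest per class by RPKM; members called in single control clones, Col4a4 and the genes of the type IV pairs were added after their values were seen. At 14816218 to 28084979 counts per library, genes under 1 CPM rest on few reads.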

Additional observations from a re-analysis of the deposited data

Results flagged for a closer look

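Sets of 4 control clones were searched for a clone far from its neighbours (gap over range above 0.829, a limit that chance passes in about 5% of sets), and 5 of 28 sets held one. In ciliated controls these were Col11a2 in D8, at 0.915 CPM, and Col5a1 in G7, at 25.1 CPM. In non-ciliated controls control 2 stood out with Col4a5 at 223 CPM, Col6a2 at 9.23 CPM and a basement membrane sum of 1547 CPM.

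The mutant effect differed between states, by the interaction term of edgeR, for Col4a2 (4.63), Col6a1 (4.24) and Col6a2 (5.01, all as differences of log2 fold changes). These calls were lost with clones summed and with clone as a random block, and those of Col6a1 and Col6a2 also without Wdr34 3 or without control 2. The states were sequenced separately and their control clones bear different labels, so run and clone cannot be told apart from state here. The study reports fewer clones than are labelled, so some may be shared between states. The interaction term took no account of this, nor of the Wdr34 allele sequenced in ciliated cells only.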

How the results depend on the processing

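With clones summed, 0 were called higher in ciliated mutants, 0 lower in non-ciliated mutants, 0 lower in ciliated controls and 0 by interaction, and with clone as a random block 0 in ciliated mutants, 0 in non-ciliated mutants and 0 by interaction. DESeq2 called 4 higher and 1 lower in ciliated mutants (beside 1.22% and 0.83% of all its genes), 1 and 4 in non-ciliated mutants (0.762% and 3.67%), 3 higher in ciliated controls (7.55%) and 5 by interaction (1.95%). In single clones it called 2 lower in Wdr34 1 (1.37%), 2 lower in Wdr34 3 (2.82%), 1 lower in ciliated Wdr60 (2.23%), 5 lower in non-ciliated Wdr34 (3.46%), 2 higher and 2 lower in non-ciliated Wdr60 (1.22% and 3.63%), 5 in H12 (5.63%), 5 in A4 (4.27%), 6 in AB (6.53%) and 1 in control 1 (3.32%). With any gene counted at least once tested, 5 of 40 were higher in ciliated mutants (beside 230 of all 17930 genes), 2 of 34 higher and 2 lower in non-ciliated mutants (0.712% and 2.48%), 6 of 38 higher in ciliated controls (7.8%), 9 of 40 higher in Wdr34 3 (4.43%), 1 of 37 in ciliated Wdr60 (0.619%), 1 of 33 in non-ciliated Wdr34 (0.349%), 3 of 33 in non-ciliated Wdr60 (1.07%) and 6 of 32 called in AB (5.29%); the genes this adds had too few counts for the expression filter. At the adjusted p alone, 1 of 13 was higher in ciliated controls, beside 31.2% of all genes. Without G7 and control 2 (chosen after seeing the data), 1 was higher and 2 lower in ciliated controls, 6 were called in H12, 4 in A4 and 4 in control 1. The cause was not tested.

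Leaving out 1 clone or library number (for single control clones, library numbers only) gave 0 to 3 higher and 0 to 2 lower in ciliated mutants, 0 to 1 and 0 to 3 in non-ciliated mutants, 0 to 3 and 2 to 6 in ciliated controls, and 0 to 4 by interaction. It gave 0 to 2 lower in Wdr34 1, 0 to 4 lower in Wdr34 3, 0 to 1 higher and 0 to 1 lower in ciliated Wdr60, 0 to 4 lower in non-ciliated Wdr34, 0 to 1 higher and 0 to 2 lower in non-ciliated Wdr60, 2 to 4 in D8, 1 to 2 in H12, 0 to 2 in A4, 6 to 7 in G7, 10 in control 2 and 2 in control 3. The shares of all genes also moved with the clone left out, as given above without G7. These counts are thus descriptions and are not read against a share. Col6a1 in ciliated mutants ranged from -0.68 (reversed, without Wdr34 3) to 3.33 over the clones left out, and Col4a2 between states from -1.99 to 0.16 (reversed, without control 2).

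Same-numbered libraries did not deviate together (median r -0.00, range -0.39 to 0.47, 8.97% of 312 pairs over 0.1), so the numbers do not pair them; with a replicate block, 0 were lower in non-ciliated Wdr60, and no other count moved by over 1.5 times. RPKM on the longest transcript kept the order of the 5 leading genes. Without G7 and control 2, the control means that moved by over 1.5 times were the fibrillar sums (11.1 to 6.05 CPM in ciliated and 31.2 to 17.0 CPM in non-ciliated controls) and the RPKM of Col5a1 (2.01 to 0.863), Col6a1 (3.26 to 1.65) and Col4a2 (0.369 to 0.161).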
